A study of Mus musculus with 13 samples.

Results

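The genes described here encode the constitutive proteasome, its regulatory particle and its activators. They were followed in mouse CD8+ T cells carrying the P14 T cell receptor transgene on a C57Bl/6 background. All 13 samples share that transgene, and they fall into 4 groups by genotype and state. There were 2 arrays of wild-type naive cells (day 0), 3 of Batf-/- naive cells (day 0), 4 of wild-type cells at day 3 and 4 of Batf-/- cells at day 3. Cells had been purified by magnetic negative selection, which removes other cells and leaves CD8+ cells untouched. Day 3 cells had been stimulated in culture with plate-bound antibodies to CD3 and CD28, with recombinant human IL-2 at 100 U/ml. Batf is an AP-1 family transcription factor of activated lymphocytes, and the labels name Batf-/- mice and no Cre or other restriction of the loss to a cell type. The labels do not say whether the arrays of a group came from separate animals or cultures, so p-values measure the spread between arrays.

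Members were taken by name, not by measured values. They are the genes whose symbol starts with Psma, Psmb, Psmc, Psmd or Psme and a digit, leaving out the interferon-inducible subunits Psmb8, Psmb9 and Psmb10, and 41 of the 18194 genes with a probe set of their own met that rule. The 41 comprise 8 genes of the alpha rings and 8 of the beta rings of the core particle, 6 ATPases and 14 other genes of the regulatory particle (among them its assembly chaperones Psmd5, Psmd9 and Psmd10), and 3 activators. The remaining 2, Psmc3ip and Psme3ip1, match by name and are not proteasome subunits: Psmc3ip encodes a cofactor of meiotic recombination, and Psme3ip1 a partner of the Psme3 activator. Psme2 is not among them because its only probe set is assigned to Psme2b as well. Each gene is represented by its brightest probe set, and 22 of the 41 had several to choose from, 87 in all.

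The proteasome degrades proteins tagged with ubiquitin. Its barrel-shaped core has outer rings of alpha subunits, which gate the entrance, around inner rings of beta subunits, of which Psmb5, Psmb6 and Psmb7 carry the chymotrypsin-like, caspase-like and trypsin-like active sites. The regulatory particle on top holds a ring of ATPases, the Psmc genes, which unfold the substrate, and the Psmd subunits, which bind and remove ubiquitin and hold the lid together. In lymphocytes the core also supplies the peptides shown on MHC class I, and interferon signalling replaces its active subunits with Psmb8, Psmb9 and Psmb10. Subunit genes are known to be induced together by the factor Nfe2l1 when proteasomes fail, through antioxidant response elements in their promoters.

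Because such elements and AP-1 sites are where Nfe2l1-type factors and Batf bind, the promoters were read for them. RefSeq promoters (GRCm38.p6), spanning 250 bases before to 50 after each annotated start, were listed for 34 of the 41 genes. An antioxidant response element, TGACNNNGC on either strand, was found for 6 of those 34 (17.6%), against 14.0% of all 27025 genes with a listed promoter: Psmb5, Psmb6, Psmc6, Psmd9, Psmd12 and Psme4. An AP-1 element, TGANTCA, was found for Psmb5 and Psmd9 (5.88%, against 8.97% of all genes). The E-box CACGTG was present for Psma4, Psmd9, Psme3 and Psme3ip1 (11.8%, against 8.09%), and CCAAT for 15 (44.1%, against 41.1%). All motifs were searched on both strands, an antioxidant response element and an AP-1 element may overlap, and a match is a run of letters and not a measured binding site. The 5 stretches below were chosen because their genes differ in how they behaved. Psmc6 and Psmd12 rose with stimulation in both genotypes, Psmb5 fell in wild-type cells, Psmb6 rose in Batf-/- cells, and Psmd9 passed in neither. All 5 are written 5′ to 3′ on the strand of the gene, with the matched letters in capitals. The stretch of Psmc6 is chr14:45329574-45329673 (plus strand), that of Psmd12 chr11:107479278-107479377 (plus), that of Psmb5 chr14:54617996-54618095 (minus), that of Psmb6 chr11:70525257-70525356 (plus) and that of Psmd9 chr5:123228050-123228169 (plus).
Psmc6: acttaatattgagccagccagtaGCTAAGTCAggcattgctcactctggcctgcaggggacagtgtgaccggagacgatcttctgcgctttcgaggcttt
Psmd12: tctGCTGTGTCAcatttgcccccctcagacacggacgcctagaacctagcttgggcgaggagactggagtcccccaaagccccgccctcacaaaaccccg
Psmb5: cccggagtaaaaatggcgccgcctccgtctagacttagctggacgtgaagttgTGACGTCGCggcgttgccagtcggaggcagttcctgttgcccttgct
Psmb6: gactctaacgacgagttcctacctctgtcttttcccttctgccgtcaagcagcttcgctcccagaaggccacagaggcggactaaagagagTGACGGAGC
Psmd9: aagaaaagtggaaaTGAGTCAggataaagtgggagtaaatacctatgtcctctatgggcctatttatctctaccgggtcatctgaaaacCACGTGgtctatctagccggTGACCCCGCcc
The response element begins 227 bases before the start of Psmc6 and 247 before that of Psmd12, both in the reverse orientation, and 47, 9 and 31 bases before those of Psmb5, Psmb6 and Psmd9. In Psmd9 the AP-1 letters and an E-box stand upstream of it, 126 and 51 bases before the start. The AP-1 letters of Psmb5 lie after its start and outside the stretch shown. Genes with and without these letters both changed, in both directions, and with 6 matched genes the shares above are close to those of all promoters.

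All values below are log2 intensities of RMA-summarised probe sets, and differences are on the same log2 scale with their standard error. RMA puts every array on a common scale, so a change shared by all genes of a cell would not appear, and the values show where a gene stands relative to the rest of the transcriptome. Levels are compared within a gene across arrays and not between genes. The Batf probe set read 9.19 and 9.36 in wild-type naive cells and 8.63, 8.80, 8.83 and 9.19 at day 3, against 5.60, 6.06 and 5.94 and 6.77, 5.56, 5.61 and 6.00 in Batf-/- cells, so that every Batf-/- array lay below every wild-type array. The CD8 T cell markers Cd3e, Cd3g, Cd8a, Cd8b1 and Cd5 averaged between 11.01 and 11.76 on every array. Naive arrays also carried signal of other blood cells that was much lower at day 3. The summed intensity of 5 B cell markers was between 1352 and 2164 in wild-type naive cells, between 2375 and 3921 in Batf-/- naive cells and between 281 and 348 in both day 3 groups. That of 3 NK cell markers was between 924 and 989, between 1023 and 3282 and between 99.1 and 134, in the same order. That of 6 neutrophil markers was between 264 and 496, between 167 and 4813 and between 106 and 112. The highest sums were those of 3 plasma cell markers, between 5413 and 7089, between 8345 and 10406 and between 46.7 and 68.1, carried by Jchain, which read between 12.39 and 13.33 on the naive arrays and between 3.54 and 4.22 at day 3. By limma 4 of 5 B cell, 3 of 3 NK cell, 3 of 4 monocyte and 3 of 3 platelet markers fell from naive to day 3 in each genotype, as did 2 of 3 plasma cell markers. So did 2 of 6 neutrophil and 3 of 4 dendritic cell markers in wild-type cells, 4 of 6 and 4 of 4 in Batf-/- cells, and Cd8a, Cd8b1 and Cd5 of the CD8 markers. At day 3 between 3 and 5 of the 6 neutrophil markers lay below the level under which the dimmest 40% of all probe sets lie. Of 3 CD4 T cell markers, Cd4 and Foxp3 passed as higher at day 3 in Batf-/- cells and 0 passed in wild-type cells. Foxp3 lay below that level on every array. Batf-/- naive replicate 1 stood apart, with a mean neutrophil marker level of 8.79 and the lowest CD8 marker level of the naive arrays, 11.09. Calls of proteasome genes that change without that array are given with and without it. In such bulk RNA, fewer cells of a type and less RNA per cell cannot be told apart, and the part that the other cell types play in the naive to day 3 differences was not tested.

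Over 3 days of stimulation single proteasome genes changed in opposite directions, and their median stayed near 0 in wild-type cells. In wild-type cells 13 of the 41 genes were higher at day 3 (31.7%) and 8 were lower (19.5%), by limma with an adjusted p below 0.05. Among all 18194 genes 22.4% were higher and 23% lower, 45.4% in either direction, against 51.2% of the proteasome genes, so their shares lie near those of the transcriptome. The median difference was 0.03, against 0.05 for all genes, and the median size of a difference was 0.20, against 0.24. Only Psmc3ip, which is no subunit, changed by 2-fold or more (2.44%), where 11.5% of all genes did. In Batf-/- cells 16 of the 41 were higher (39%) and 7 lower (17.1%), where 23.8% and 23.2% of all genes were, and 56.1% in either direction, where 47% of all genes were. Their median difference was 0.12, against 0.05 for all genes, 25 of the 41 (61.0%) lay above 0, against 57.6%, and the median size was 0.22 for both. None of the 41 changed by 2-fold or more in Batf-/- cells, where 10.2% of all genes did. Counted by arrays that do not overlap, 16 genes lay wholly higher at day 3 and 14 wholly lower in wild-type cells (30.3% and 28% of all genes), and 17 and 9 in Batf-/- cells (25% and 23.2% of all genes). Quantile normalisation of the arrays a second time gave 12 higher and 11 lower in wild-type and 14 higher and 10 lower in Batf-/- cells, and leaving out Batf-/- naive replicate 1 gave 19 and 7.

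**Figure D1:**
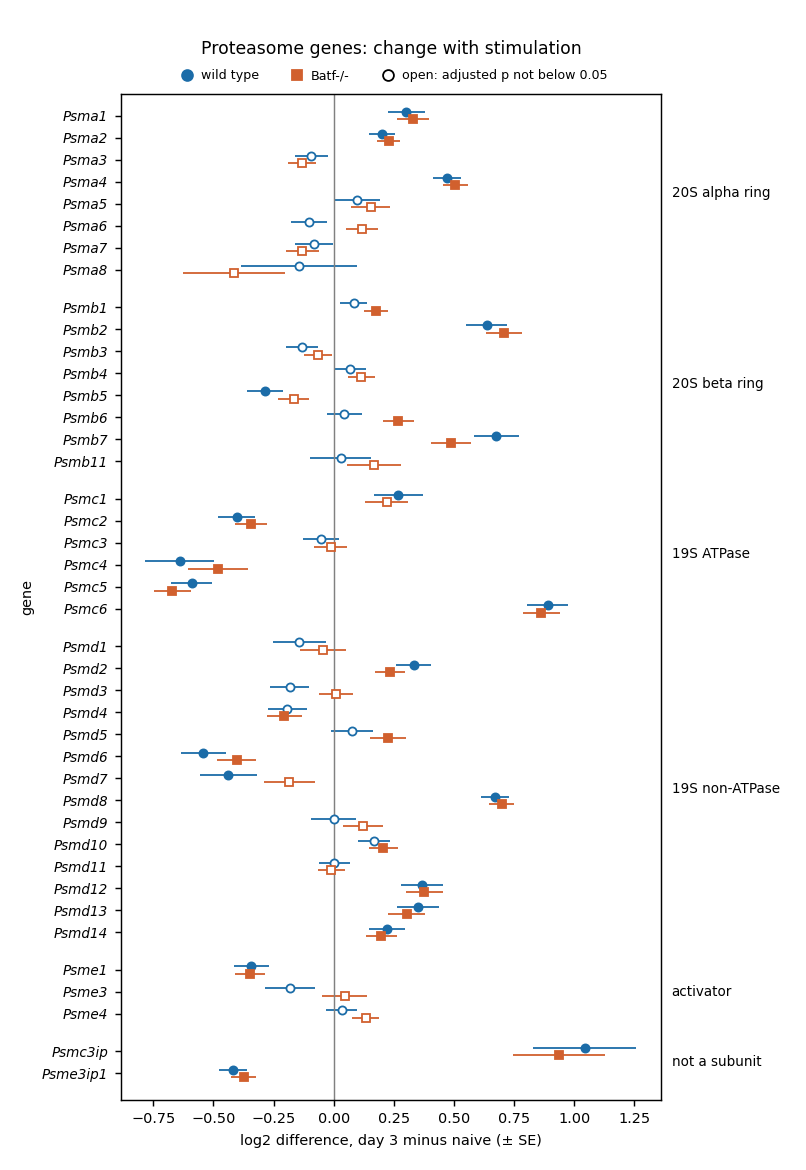
Change of each of the 41 proteasome genes from naive to day 3 (log2 difference ± SE, x axis) in wild-type (circles) and Batf-/- cells (squares), grouped by role (20S is the core and 19S the regulatory particle); filled symbols have a limma adjusted p below 0.05 and open symbols do not. The 6 ATPase genes spread from Psmc6 at 0.89 to Psmc4 at -0.64 in wild-type cells, and circles and squares of a gene lie on the same side of 0 wherever both are filled.

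In the alpha rings, which open and close the entrance to the core, 3 of 8 genes rose in each genotype. Among all genes 22.4% rose in wild-type and 23.8% in Batf-/- cells. On the brightest probe sets no alpha gene passed as lower. Of the alpha genes Psma4 moved most. It read 11.75 and 11.71 in wild-type naive cells, 11.80, 11.72 and 11.82 in Batf-/- naive cells, 12.19, 12.21, 12.22 and 12.18 in wild-type day 3 cells and 12.32, 12.30, 12.26 and 12.26 in Batf-/- day 3 cells. All 8 day 3 arrays lay above all 5 naive arrays, a rise of 0.47 ± 0.06 in wild-type cells (limma adjusted p = 1.55e-05) and of 0.51 ± 0.05 in Batf-/- cells (adjusted p = 2.36e-06), or 1.39-fold and 1.42-fold. Psma1 read 10.91 and 11.05 in wild-type naive cells, 11.15, 10.89 and 11.04 in Batf-/- naive cells, 11.27, 11.25, 11.31 and 11.31 in wild-type day 3 cells and 11.30, 11.37, 11.39 and 11.36 in Batf-/- day 3 cells. All its day 3 arrays lay above its naive arrays, and its rise was 0.30 ± 0.08 in wild-type cells (adjusted p = 0.0049) and 0.33 ± 0.07 in Batf-/- cells (adjusted p = 0.00105). This call rests on 1 of its probe sets: with the mean of its 4 probe sets the differences were 0.07 and 0.04 and passed in neither genotype. Another probe set of Psma1 passed as lower in wild-type cells. Psma2 read 12.28 and 12.29 in wild-type naive cells, 12.37, 12.40 and 12.37 in Batf-/- naive cells, 12.46, 12.47, 12.51 and 12.48 in wild-type day 3 cells and 12.63, 12.61, 12.58 and 12.60 in Batf-/- day 3 cells. Here too day 3 and naive arrays did not overlap, the groups were tight and the rise small, 0.20 ± 0.05 and 0.23 ± 0.05 (adjusted p = 0.00815 and 0.00127). Without wild-type naive replicate 1 the wild-type calls of Psma1 and Psma2 were lost, at adjusted p = 0.0770 and 0.0540.

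The other 5 alpha genes did not pass in either genotype in the fit reported. Psma7, a subunit of the same rings, read 11.25 and 11.23 in wild-type naive cells, 11.54, 11.24 and 11.37 in Batf-/- naive cells, 11.13, 11.11, 11.25 and 11.15 in wild-type day 3 cells and 11.23, 11.25, 11.28 and 11.25 in Batf-/- day 3 cells, and its groups overlapped, with differences of -0.08 ± 0.08 and -0.13 ± 0.07. Psma6 read 11.80 and 11.85 in wild-type naive cells, 11.93, 11.78 and 11.67 in Batf-/- naive cells, 11.70, 11.73, 11.78 and 11.69 in wild-type day 3 cells and 11.84, 11.92, 11.95 and 11.94 in Batf-/- day 3 cells. The wild-type day 3 arrays lay below the naive ones and the Batf-/- groups overlapped, with differences of -0.10 ± 0.07 in wild-type and 0.12 ± 0.07 in Batf-/- cells. Without Batf-/- naive replicate 1 the Batf-/- difference of Psma6 was 0.19 and passed (adjusted p = 0.0247), as did that of Psma5 at 0.26 (adjusted p = 0.00729). Psma3 and Psma5 each have another probe set that behaved otherwise: that of Psma3 fell by 0.72 in wild-type and by 0.61 in Batf-/- cells, and that of Psma5 rose by 0.42 and 0.50. With the mean of its probe sets Psma3 passed as lower, at -0.40 in wild-type (adjusted p = 0.000119) and -0.37 in Batf-/- cells (adjusted p = 8.5e-05). Psma5 passed as higher in the same way, at 0.17 (adjusted p = 0.0432) and 0.20 (adjusted p = 0.00817). Psma8 encodes the alpha subunit of the spermatocyte proteasome and read between 3.13 and 4.61 on all arrays, with only Batf-/- naive replicate 1 above 4.35, the level under which the dimmest 40% of all probe sets lie.

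The beta rings held both rises and a fall, among them the genes of the 3 active sites. Psmb7, the trypsin-like subunit, read 8.14 and 8.23 in wild-type naive cells, 8.53, 8.17 and 8.36 in Batf-/- naive cells, 8.96, 8.78, 8.94 and 8.76 in wild-type day 3 cells and 8.88, 8.81, 8.84 and 8.83 in Batf-/- day 3 cells. The groups did not overlap, and it rose by 0.68 ± 0.09 in wild-type cells (adjusted p = 4.62e-05) and by 0.49 ± 0.08 in Batf-/- cells (adjusted p = 0.000262). Psmb5, the chymotrypsin-like subunit and main target of proteasome inhibitor drugs, read 10.97 and 11.03 in wild-type naive cells, 11.15, 10.91 and 10.99 in Batf-/- naive cells, 10.67, 10.66, 10.76 and 10.76 in wild-type day 3 cells and 10.91, 10.80, 10.84 and 10.84 in Batf-/- day 3 cells. Every day 3 array lay below every naive array, though only just between the highest of the former and the lowest of the latter. The fall was 0.29 ± 0.07 in wild-type cells (adjusted p = 0.00595), and the difference of -0.17 ± 0.07 in Batf-/- cells did not pass in the fit reported (adjusted p = 0.0521). It passed under 8 of 24 alternative settings (adjusted p between 0.00580 and 0.0469) and was -0.099 without Batf-/- naive replicate 1. Without wild-type naive replicate 2 the wild-type call of Psmb5 was lost (adjusted p = 0.0602). Psmb6, the caspase-like subunit, read 10.83 and 10.84 in wild-type naive cells, 10.89, 10.70 and 10.84 in Batf-/- naive cells, 10.91, 10.76, 10.96 and 10.88 in wild-type day 3 cells and 11.07, 11.03, 11.12 and 11.09 in Batf-/- day 3 cells. Its wild-type groups overlapped and its Batf-/- groups did not. It rose in Batf-/- cells by 0.27 ± 0.06 (adjusted p = 0.00367) and differed by 0.04 ± 0.07 in wild-type cells (adjusted p = 0.662). The 3 genes of the active sites thus had wild-type differences of 0.68, -0.29 and 0.04.

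Psmb2, a structural beta subunit, showed one of the larger rises in the core. It read 10.55 and 10.75 in wild-type naive cells, 10.90, 10.61 and 10.86 in Batf-/- naive cells, 11.31, 11.28, 11.30 and 11.28 in wild-type day 3 cells and 11.56, 11.49, 11.47 and 11.47 in Batf-/- day 3 cells. Every day 3 array lay above every naive array, and the rise was 0.64 ± 0.09 (1.55-fold, adjusted p = 3.4e-05) in wild-type cells and 0.71 ± 0.08 (1.63-fold, adjusted p = 3.84e-06) in Batf-/- cells. Psmb1, also structural, passed in Batf-/- cells alone, at 0.18 ± 0.05 (adjusted p = 0.0111), and its wild-type difference was 0.08 ± 0.06. With the mean of the probe sets of Psmb1 this turned about, at 0.20 in wild-type (adjusted p = 0.0129) and 0.13 in Batf-/- cells (adjusted p = 0.0573). Psmb3 and Psmb4 passed in neither genotype, with wild-type differences of -0.13 and 0.07. Psmb11, the subunit of the thymus epithelium, read between 3.32 and 3.89 on all arrays, which is below the dim level of 4.35.

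**Figure D2:**
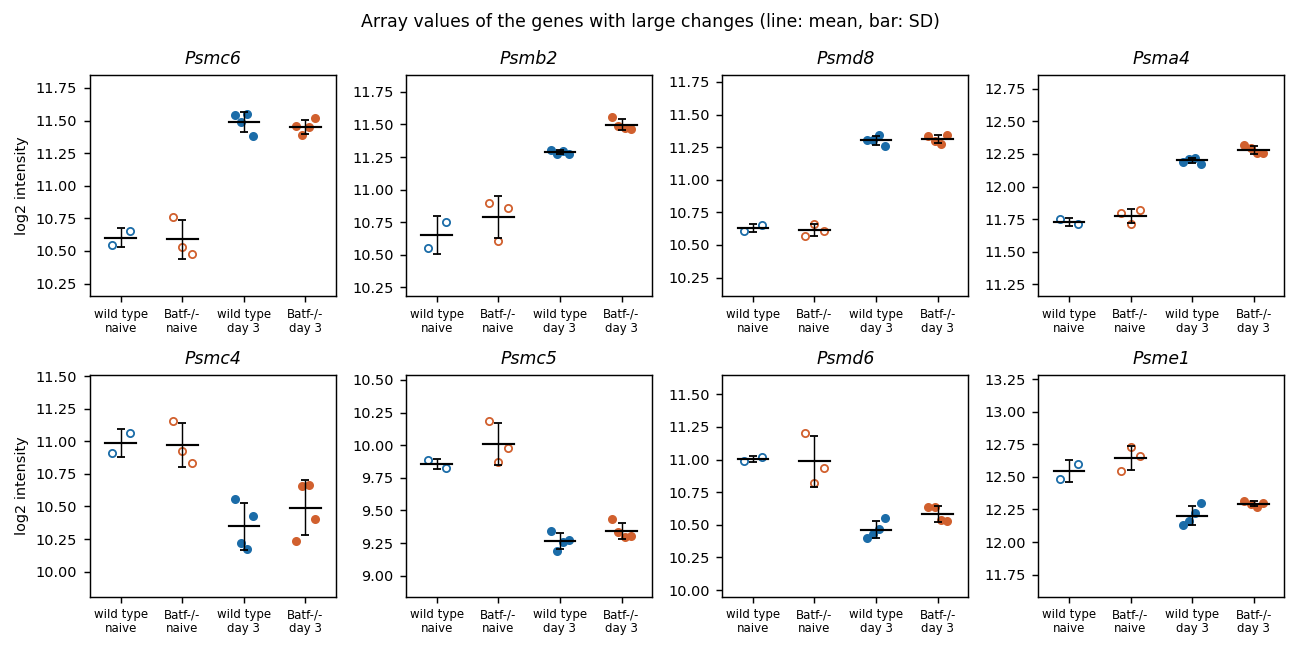
Log2 intensity on each array (points) of 8 genes with large changes, by group, with the group mean (line) and SD (bar); each panel has its own y axis. In Psmc6, Psmb2, Psmd8 and Psma4 (upper row) all day 3 arrays lie above all naive arrays, and in Psmc4, Psmc5, Psmd6 and Psme1 (lower row) all lie below.

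On the brightest probe sets the ATPase ring showed the widest spread of any role, with changes in opposite directions among subunits that sit side by side. With the mean of each gene's probe sets its wild-type differences ran from -0.59 for Psmc5 to 0.44 for Psmc6. Those of the Psmd genes then ran wider, from -0.60 for Psmd6 to 0.67 for Psmd8. On its brightest probe set Psmc6 rose more than any other subunit. It read 10.55 and 10.65 in wild-type naive cells, 10.76, 10.53 and 10.47 in Batf-/- naive cells, 11.54, 11.49, 11.55 and 11.38 in wild-type day 3 cells and 11.45, 11.39, 11.45 and 11.52 in Batf-/- day 3 cells, so that every day 3 array lay above every naive array. The rise was 0.89 ± 0.09 (1.85-fold, adjusted p = 1.58e-06) in wild-type cells and 0.86 ± 0.08 (1.82-fold, adjusted p = 6.23e-07) in Batf-/- cells. Its dimmer probe sets moved less, by 0.33 and 0.11 in wild-type and by 0.08 and 0.11 in Batf-/- cells, and the mean of its 3 probe sets rose by 0.44 and 0.35, less than Psmb7, Psmb2 and Psmd8 on theirs. In the assembled ring Psmc6 pairs with Psmc3, which read 10.93 and 10.91 in wild-type naive cells, 11.06, 10.76 and 10.93 in Batf-/- naive cells, 10.85, 10.87, 10.84 and 10.91 in wild-type day 3 cells and 10.94, 10.91, 10.91 and 10.86 in Batf-/- day 3 cells and whose groups overlapped. The differences of Psmc3 were -0.05 ± 0.08 and -0.01 ± 0.07 and did not pass.

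Psmc4 and Psmc5, which also pair with each other in the ring, both fell. Psmc5 read 9.88 and 9.83 in wild-type naive cells, 10.19, 9.87 and 9.98 in Batf-/- naive cells, 9.34, 9.19, 9.26 and 9.28 in wild-type day 3 cells and 9.43, 9.34, 9.29 and 9.30 in Batf-/- day 3 cells. All its day 3 arrays lay below its naive arrays, and its fall was 0.59 ± 0.09 in wild-type cells (1.5-fold lower, adjusted p = 6.7e-05) and 0.67 ± 0.08 in Batf-/- cells (1.59-fold lower, adjusted p = 6.45e-06). Psmc4 read 10.91 and 11.06 in wild-type naive cells, 11.15, 10.93 and 10.83 in Batf-/- naive cells, 10.56, 10.22, 10.17 and 10.43 in wild-type day 3 cells and 10.23, 10.66, 10.66 and 10.40 in Batf-/- day 3 cells. The day 3 arrays of Psmc4 were the most scattered of the ATPase genes, with SDs of 0.18 and 0.21, and still lay below all naive arrays. Its fall was 0.64 ± 0.14 (adjusted p = 0.00215) and 0.48 ± 0.13 (adjusted p = 0.00624), and both of its probe sets fell in both genotypes. The last pair of the ring, Psmc1 and Psmc2, moved apart in wild-type cells. Psmc2 read 11.14 and 11.15 in wild-type naive cells, 11.37, 11.13 and 11.17 in Batf-/- naive cells, 10.76, 10.72, 10.68 and 10.80 in wild-type day 3 cells and 10.80, 10.91, 10.92 and 10.88 in Batf-/- day 3 cells. Its day 3 arrays were all lower than its naive arrays, and it fell by 0.40 ± 0.08 (adjusted p = 0.000596) in wild-type and by 0.34 ± 0.07 (adjusted p = 0.000745) in Batf-/- cells. With the mean of its probe sets the Batf-/- difference was -0.17 (adjusted p = 0.0539). Psmc1 rose by 0.27 ± 0.10 in wild-type cells, close to the threshold (adjusted p = 0.0463), and differed by 0.22 ± 0.09 in Batf-/- cells (adjusted p = 0.0595), or by 0.35 without naive replicate 1 (adjusted p = 0.00036). The Batf-/- difference passed under 6 of the 24 alternative settings. The wild-type call of Psmc1 was lost without any 1 of the 10 arrays of wild-type naive, wild-type day 3 and Batf-/- day 3 cells, with adjusted p between 0.0544 and 0.163.

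Of the 14 Psmd genes, 5 rose and 2 fell in wild-type cells, where 22.4% and 23% of all genes did. In Batf-/- cells 7 rose and 2 fell, where 23.8% and 23.2% of all genes did. Psmd8 is a lid subunit that docks late in assembly. It read 10.61 and 10.65 in wild-type naive cells, 10.57, 10.66 and 10.61 in Batf-/- naive cells, 11.30, 11.30, 11.34 and 11.26 in wild-type day 3 cells and 11.33, 11.30, 11.28 and 11.34 in Batf-/- day 3 cells. Every day 3 array lay above every naive array, and the rise was 0.67 ± 0.06 in wild-type (1.59-fold, adjusted p = 6.63e-07) and 0.70 ± 0.05 in Batf-/- cells (1.62-fold, adjusted p = 1.33e-07). Psmd6, another lid subunit, went the other way. It read 10.99 and 11.02 in wild-type naive cells, 11.20, 10.82 and 10.94 in Batf-/- naive cells, 10.40, 10.43, 10.47 and 10.55 in wild-type day 3 cells and 10.64, 10.64, 10.54 and 10.53 in Batf-/- day 3 cells, with all day 3 arrays below all naive arrays, a fall of 0.54 ± 0.09 in wild-type cells (adjusted p = 0.000287) and of 0.40 ± 0.08 in Batf-/- cells (adjusted p = 0.0011), with both of its probe sets lower.

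Among the subunits that handle ubiquitin, Psmd14, the enzyme that cuts ubiquitin chains off the substrate, rose by 0.22 ± 0.08 and 0.20 ± 0.07 (adjusted p = 0.0271 and 0.0248). Its catalytically inactive partner Psmd7 read 9.55 and 9.76 in wild-type naive cells, 9.80, 9.35 and 9.44 in Batf-/- naive cells, 9.24, 9.18, 9.26 and 9.20 in wild-type day 3 cells and 9.42, 9.49, 9.27 and 9.20 in Batf-/- day 3 cells. Psmd7 fell by 0.44 ± 0.12 in wild-type cells (adjusted p = 0.00794). In Batf-/- cells its groups overlapped, with a difference of -0.18 ± 0.10 (adjusted p = 0.172) that was -0.050 without naive replicate 1. On another probe set Psmd7 fell by 0.51 in wild-type and by 0.42 in Batf-/- cells and passed in both. The mean of its probe sets gave -0.31 (adjusted p = 0.00767) and -0.18 (adjusted p = 0.0574). On its brightest probe set the wild-type call of Psmd7 was lost without naive replicate 2 (adjusted p = 0.112). That of Psmd14 was lost without either wild-type naive array or wild-type day 3 replicate 3, and in Batf-/- cells without naive replicate 2 or 3 or day 3 replicate 3, with adjusted p between 0.0507 and 0.118. Psmd4, a ubiquitin receptor, read 11.03 and 10.95 in wild-type naive cells, 10.97, 11.00 and 11.18 in Batf-/- naive cells, 10.68, 10.87, 10.81 and 10.83 in wild-type day 3 cells and 10.96, 10.78, 10.79 and 10.84 in Batf-/- day 3 cells. Day 3 arrays lay below the naive arrays of their own genotype. The difference of -0.20 ± 0.07 in Batf-/- cells passed (adjusted p = 0.0338) and that of -0.19 ± 0.08 in wild-type cells did not (adjusted p = 0.0752), though it passed under 3 alternative settings. The Batf-/- call of Psmd4 was lost without naive replicate 3 or day 3 replicate 2, 3 or 4, with adjusted p between 0.0620 and 0.158. Psmd2, the large scaffold subunit that docks ubiquitin shuttles, rose by 0.33 ± 0.07 and 0.23 ± 0.06 (adjusted p = 0.00184 and 0.00821), while the other large scaffold, Psmd1, passed in neither genotype (-0.14 ± 0.11 and -0.05 ± 0.10, the latter 0.11 without Batf-/- naive replicate 1). With the mean of its probe sets the Batf-/- difference of Psmd2 was 0.044 (adjusted p = 0.515).

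The lid subunits Psmd12 and Psmd13 rose in both genotypes, by 0.37 ± 0.09 and 0.38 ± 0.08 and by 0.35 ± 0.09 and 0.30 ± 0.08. Psmd3, a lid subunit as well, read 9.03 and 9.11 in wild-type naive cells, 9.16, 8.88 and 8.96 in Batf-/- naive cells, 8.86, 8.95, 8.89 and 8.86 in wild-type day 3 cells and 9.10, 8.97, 9.01 and 8.96 in Batf-/- day 3 cells. Its wild-type arrays were lower at day 3 without overlap and its Batf-/- arrays overlapped, and the differences of -0.18 ± 0.08 and 0.01 ± 0.07 did not pass. Without Batf-/- naive replicate 1 the wild-type difference of Psmd3 passed, at -0.18 (adjusted p = 0.0296). Psmd11 also passed in neither, with 0.00 ± 0.06 and -0.01 ± 0.06, and its 8 probe sets ran from -0.44 to 0.35 in wild-type cells. Psmd5, Psmd9 and Psmd10 encode chaperones that build the ATPase ring and leave before the proteasome is complete. Psmd10 rose in Batf-/- cells by 0.21 ± 0.06 (adjusted p = 0.0106), with 0.17 ± 0.07 in wild-type cells (adjusted p = 0.0565), which passed under 7 alternative settings (adjusted p between 0.0210 and 0.0487). Psmd5 rose in Batf-/- cells by 0.23 ± 0.08 (adjusted p = 0.0256), a call that was lost without naive replicate 2 or 3 or day 3 replicate 3 or 4, with adjusted p between 0.0501 and 0.124. Psmd9 read 7.59 and 7.53 in wild-type naive cells, 7.73, 7.45 and 7.76 in Batf-/- naive cells, 7.49, 7.66, 7.65 and 7.44 in wild-type day 3 cells and 7.78, 7.71, 7.81 and 7.78 in Batf-/- day 3 cells, with overlapping groups, a difference near 0 in wild-type cells (adjusted p = 0.998) and one of 0.12 ± 0.08 in Batf-/- cells. The mean of the 3 probe sets of Psmd9 gave -0.35 and -0.26, both passing; among them its dimmest probe set, which lies below the dim level, fell by 0.86 and 0.72.

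Of the 3 activators, which cap the core in place of the regulatory particle, 1 fell. Psme1, a subunit of the interferon-inducible activator that serves antigen processing, read 12.49 and 12.60 in wild-type naive cells, 12.54, 12.73 and 12.66 in Batf-/- naive cells, 12.13, 12.16, 12.22 and 12.30 in wild-type day 3 cells and 12.32, 12.30, 12.27 and 12.30 in Batf-/- day 3 cells. All day 3 arrays lay below all naive arrays, and the fall was 0.34 ± 0.07 in wild-type cells (adjusted p = 0.00143) and 0.35 ± 0.06 in Batf-/- cells (adjusted p = 0.00046). The probe set shared by its partner Psme2 and Psme2b, which was not tested, read between 12.51 and 12.69 on the naive arrays and between 12.04 and 12.39 on the day 3 arrays. Psme3, the nuclear activator, read 7.98 and 8.04 in wild-type naive cells, 8.25, 7.87 and 8.04 in Batf-/- naive cells, 7.77, 7.75, 7.77 and 8.02 in wild-type day 3 cells and 8.12, 8.19, 8.10 and 7.99 in Batf-/- day 3 cells. The groups overlapped, and its differences of -0.18 ± 0.11 and 0.05 ± 0.09 did not pass. A dimmer probe set of Psme3 fell by 0.68 and 0.49. The mean of its probe sets passed as lower in wild-type cells, at -0.38 (adjusted p = 0.000538). In Batf-/- cells that mean gave -0.15 (adjusted p = 0.0674). Psme4, the large nuclear activator, read 9.90 and 9.88 in wild-type naive cells, 9.80, 9.76 and 9.77 in Batf-/- naive cells, 9.99, 9.91, 9.88 and 9.91 in wild-type day 3 cells and 10.01, 9.89, 9.86 and 9.87 in Batf-/- day 3 cells. Its Batf-/- arrays were higher at day 3 without overlap and its wild-type arrays overlapped, and the differences of 0.03 ± 0.06 and 0.13 ± 0.06 did not pass either. The probe sets of Psme4 disagreed. Of the 5 above the dim level, 1 passed as higher and 2 as lower in wild-type cells. In Batf-/- cells 1 passed as lower. The mean of all 6 gave -0.12 and -0.09, which did not pass.

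The 2 genes matched by name alone both changed. Psmc3ip read 6.52 and 6.86 in wild-type naive cells, 7.52, 6.51 and 6.59 in Batf-/- naive cells, 7.69, 7.72, 7.70 and 7.83 in wild-type day 3 cells and 7.79, 7.87, 7.90 and 7.68 in Batf-/- day 3 cells, a rise of 1.04 ± 0.22 in wild-type cells (adjusted p = 0.00123) and of 0.94 ± 0.19 in Batf-/- cells (adjusted p = 0.00104). All day 3 arrays lay above all naive arrays. Batf-/- naive replicate 1 lay apart from the other naive arrays, and without it the Batf-/- rise was 1.26. Psme3ip1 read 9.67 and 9.69 in wild-type naive cells, 9.66, 9.62 and 9.62 in Batf-/- naive cells, 9.24, 9.33, 9.23 and 9.24 in wild-type day 3 cells and 9.30, 9.28, 9.21 and 9.25 in Batf-/- day 3 cells, a fall of 0.42 ± 0.06 and 0.37 ± 0.05 (adjusted p = 5.42e-05 and 4.65e-05), with all day 3 arrays below all naive arrays.

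The genotypes shared calls at about the rate of all genes. Both lists held 12 genes that were higher and 6 that were lower, and 0 genes had opposite calls. Those 18 make up 85.7% of the 21 calls in wild-type cells and 78.3% of the 23 in Batf-/- cells, and among all genes the shares were 82.3% and 79.6%. In the fit reported Psmb5, Psmc1 and Psmd7 passed in wild-type cells alone, Psmb1, Psmb6, Psmd4, Psmd5 and Psmd10 in Batf-/- cells alone, and 15 in neither. Several of these lay close to the threshold, since Psmb5 and Psmc1 also passed in Batf-/- and Psmd4, Psmd10 and Psmb1 in wild-type cells under the alternatives named above. Another probe set of Psmd7 passed as lower in Batf-/- cells. Across the 41 genes the differences in one genotype correlated with those in the other at r = 0.958 (rho = 0.955), and across all 18194 genes at r = 0.945 (rho = 0.861). These are descriptions across genes that share the arrays and are not independent replicates. The difference between the stimulation changes, tested as an interaction, passed for 0 of the 41 by limma, where 0.649% of all genes passed, and 2 (4.88%) had an unadjusted p below 0.05, where 11.9% of all genes did. Those were Psmb6 at 0.22 ± 0.10 (unadjusted p = 0.0399, adjusted p = 0.385) and Psma6 at 0.22 ± 0.10 (unadjusted p = 0.0479, adjusted p = 0.415). The difference between the changes was above 0 for 27 of the 41 (65.9%), against 53.1% of all genes, with a median of 0.04 against 0.01. Without Batf-/- naive replicate 1 it was above 0 for 37, with a median of 0.09 against 0.01. It was above 0 for 33 with array quality weights and for 23 without Batf-/- naive replicate 2, and these counts carry no test. For the 39 genes above the dim level the 95% intervals of that difference lay between -0.73 and 0.60, so that differences of up to 1.66-fold between the genotypes' responses are within them. The lower bound is that of Psmc3ip, which is no subunit.

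Genes that build, regulate or feed the proteasome changed in the same mixed way. The 3 interferon-inducible active subunits did not move together. Psmb9 read 11.12 and 11.11 in wild-type naive cells, 11.33, 11.49 and 11.51 in Batf-/- naive cells, 11.90, 12.00, 12.02 and 12.13 in wild-type day 3 cells and 12.12, 12.00, 11.99 and 11.97 in Batf-/- day 3 cells, a rise of 0.90 ± 0.08 in wild-type cells (adjusted p = 7.24e-07) and 0.58 ± 0.07 in Batf-/- cells (adjusted p = 1.23e-05). It replaces Psmb6 in the immunoproteasome. Psmb8, which replaces Psmb5, read 12.44 and 12.44 in wild-type naive cells, 12.44, 12.57 and 12.62 in Batf-/- naive cells, 12.74, 12.77, 12.81 and 12.85 in wild-type day 3 cells and 12.96, 12.84, 12.78 and 12.83 in Batf-/- day 3 cells, a rise of 0.35 ± 0.07 and 0.31 ± 0.06 (adjusted p = 0.00116 and 0.00116). Psmb10, which replaces Psmb7, read 11.54 and 11.62 in wild-type naive cells, 11.58, 11.68 and 11.76 in Batf-/- naive cells, 10.99, 11.01, 10.99 and 11.19 in wild-type day 3 cells and 11.41, 11.25, 11.18 and 11.19 in Batf-/- day 3 cells, a fall of 0.54 ± 0.09 and 0.41 ± 0.08 (adjusted p = 0.000146 and 0.000433). All day 3 arrays of Psmb8 and Psmb9 lay above, and all of Psmb10 below, their naive arrays. In wild-type cells Psmb5 fell and Psmb8 rose, a call of Psmb5 that was lost without naive replicate 2, Psmb7 rose and Psmb10 fell, and Psmb9 rose while Psmb6 did not pass. In Batf-/- cells Psmb6 and Psmb9 both rose, Psmb7 rose and Psmb10 fell, and Psmb8 rose while Psmb5 did not pass.

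**Figure D3:**
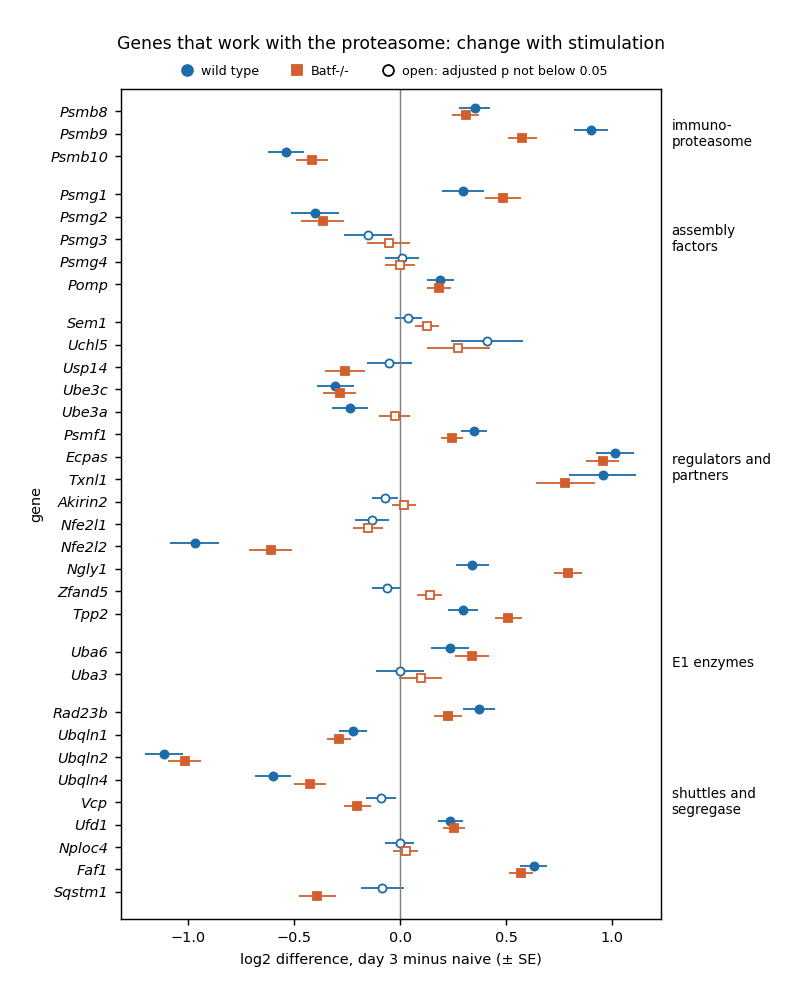
Change from naive to day 3 (log2 difference ± SE, x axis) of genes that work with the proteasome, in wild-type (circles) and Batf-/- cells (squares), grouped by role; filled symbols have a limma adjusted p below 0.05. Psmb8 and Psmb9 lie right of 0 and Psmb10 left of it, and Ecpas at 1.01 and Ubqln2 at -1.11 mark the ends of the wild-type range.

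Of 5 assembly factors measured, Psmg1 and Pomp rose and Psmg2 fell in both genotypes, and Psmg3 and Psmg4 did not pass. With the mean of its probe sets Psmg3 passed as lower in wild-type cells, at -0.29 (adjusted p = 0.0101). Psmg1 and Psmg2 are partners in 1 chaperone that starts the alpha ring, and they moved in opposite directions, by 0.30 ± 0.10 and -0.40 ± 0.11 in wild-type cells and by 0.49 ± 0.09 and -0.37 ± 0.10 in Batf-/- cells. Pomp, which matures the beta ring, rose by 0.19 ± 0.06 and 0.18 ± 0.06. The wild-type calls were sensitive to single arrays: those of Psmg1 and Pomp were lost without either wild-type naive array or wild-type day 3 replicate 3 (Pomp also without day 3 replicate 4), and that of Psmg2 without wild-type naive replicate 2, with adjusted p between 0.0543 and 0.145. In Batf-/- cells Pomp was lost without naive replicate 2 (adjusted p = 0.0752).

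Of 16 listed regulators and partners 14 were measured. Psmf1, Ecpas, Txnl1, Ngly1 and Tpp2 were higher at day 3 in both genotypes. Ecpas, which binds the regulatory particle and takes proteasomes apart, rose by 1.01 ± 0.09 and 0.95 ± 0.08, and Txnl1, a thioredoxin that rides on the regulatory particle, by 0.96 ± 0.16 and 0.78 ± 0.14. Tpp2, a peptidase that trims proteasome products, rose by 0.30 ± 0.07 and 0.51 ± 0.06, and its wild-type call was lost with the mean of its probe sets. Psmf1, an inhibitor of the core, rose by 0.35 ± 0.06 and 0.24 ± 0.05 on its brightest probe set and turned to -0.62 and -0.58 with the mean of its probe sets, so its direction depends on the probe set. Of the factors that control subunit genes, Nfe2l1 did not pass (-0.13 ± 0.08 and -0.15 ± 0.07), while its relative Nfe2l2 fell by 0.97 ± 0.11 and 0.61 ± 0.10. Ngly1, which processes Nfe2l1 into its active form, rose by 0.34 ± 0.08 and 0.79 ± 0.07. The ubiquitin ligase Ube3c fell by 0.31 ± 0.09 and 0.29 ± 0.08, and its wild-type call was lost without naive replicate 2 (adjusted p = 0.137). Uchl5, a deubiquitinase of the regulatory particle, read 9.56 and 9.65 in wild-type naive cells, 10.30, 9.53 and 9.52 in Batf-/- naive cells, 10.11, 9.95, 10.05 and 9.97 in wild-type day 3 cells and 9.99, 10.02, 10.04 and 10.18 in Batf-/- day 3 cells, with Batf-/- naive replicate 1 above the other naive arrays. Its differences of 0.41 ± 0.17 and 0.27 ± 0.15 did not pass, and without that array they were 0.41 (adjusted p = 0.00033) and 0.53 (adjusted p = 3.94e-05) and both passed. Ube3a passed as lower in wild-type cells and the deubiquitinase Usp14 in Batf-/- cells (-0.24 ± 0.09 and -0.26 ± 0.09), and each was lost without any 1 of 4 arrays, with adjusted p between 0.0675 and 0.207.

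Of the 8 listed ubiquitin and E1 genes 2 were measured, and the ubiquitin-activating enzyme Uba6 was higher by 0.24 ± 0.09 and 0.34 ± 0.08 (adjusted p = 0.0472 and 0.00285). Its wild-type call was lost without any 1 of 9 arrays, with adjusted p between 0.0529 and 0.307. Of 9 shuttle and segregase genes measured, which bring substrates to the proteasome, the 3 ubiquilins fell in both genotypes. Ubqln2 fell by 1.11 ± 0.09 and 1.01 ± 0.08, Ubqln4 by 0.60 ± 0.09 and 0.43 ± 0.08 and Ubqln1 by 0.22 ± 0.07 and 0.29 ± 0.06. Over the 24 alternatives the difference of Ubqln2 lay between -1.14 and -0.42 in wild-type and between -1.08 and -0.39 in Batf-/- cells. That of Ubqln4 lay between -0.65 and -0.32 and between -0.51 and -0.32. The wild-type call of Ubqln1 was lost without naive replicate 1 (adjusted p = 0.139). With the mean of its probe sets the call of Ubqln1 was lost in both genotypes. The segregase cofactor Faf1 rose by 0.63 ± 0.06 and 0.57 ± 0.06. Rad23b and Ufd1 rose on their brightest probe sets (by 0.37 ± 0.07 and 0.24 ± 0.06 in wild-type cells) and lay below 0 with the mean of their probe sets (-0.065 and -0.16). Vcp, the segregase itself, and Sqstm1, an autophagy receptor, fell in Batf-/- cells, by 0.20 ± 0.06 and 0.39 ± 0.09. Their wild-type differences were -0.09 ± 0.07 and -0.08 ± 0.10. With the mean of their probe sets both passed as lower in wild-type cells too, at -0.22 (adjusted p = 0.0101) and -0.49 (adjusted p = 0.00229). In Batf-/- cells the call of Vcp was lost without naive replicate 1 or 3 (adjusted p = 0.0644 and 0.0554). That of Rad23b in Batf-/- cells was lost without naive replicate 2 (adjusted p = 0.0644). In the fit reported none of the genes of these 5 lists passed in a comparison of the genotypes or in the interaction, and several did under other settings. Ngly1 was lower in Batf-/- naive cells under 7 of the 24 alternatives (adjusted p between 0.0164 and 0.0451, -0.36 in the fit reported), and its interaction passed under 5 (adjusted p between 0.0217 and 0.0470). The interaction of Nfe2l2 passed without Batf-/- naive replicate 1 (0.50, adjusted p = 0.0411) and with array quality weights (0.43, adjusted p = 0.0492), and its day 3 difference passed under 2 settings (0.23 in both). With array quality weights Psmb10 (0.21) and Sqstm1 (-0.23) passed at day 3, Usp14 (0.48) and Ubqln4 (-0.37) in naive cells and Psmb9 in the interaction (-0.38).

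No proteasome gene passed between the genotypes at day 3, and most of the differences were small and on the higher side in Batf-/- cells. By limma 0 of the 41 passed, where 1.37% of all genes did (0.665% higher and 0.709% lower). At an unadjusted p below 0.05 there were 10 (24.4%), all higher in Batf-/- cells, where 12.6% of all genes were below it in either direction. The 10 were Psma2, Psma6, Psmb1, Psmb2, Psmb3, Psmb5, Psmb6, Psmc2, Psmd9 and Psme3. By role they were 5 of 8 beta ring, 2 of 8 alpha ring, 1 of 6 ATPase, 1 of 14 Psmd and 1 of 3 activator genes. A difference between roles was not tested. Batf-/- minus wild type was above 0 for 35 of the 41 genes (85.4%), against 55.5% of all genes, with a median of 0.08 against 0.01. It was above 0 for 37 after a second quantile normalisation, for 34 with arrays centred on their medians and for 31 with each gene's probe sets averaged. In 11 genes all Batf-/- arrays lay above all wild-type arrays and in 0 all lay below, where 7.44% and 5.34% of all genes did. The 11 (26.8%) were Psma2, Psma4, Psma6, Psmb1, Psmb2, Psmb3, Psmb5, Psmb6, Psmd3, Psmd9 and Psmd14. Neighbouring genes of one complex are not independent of each other, so these counts carry no test.

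**Figure D4:**
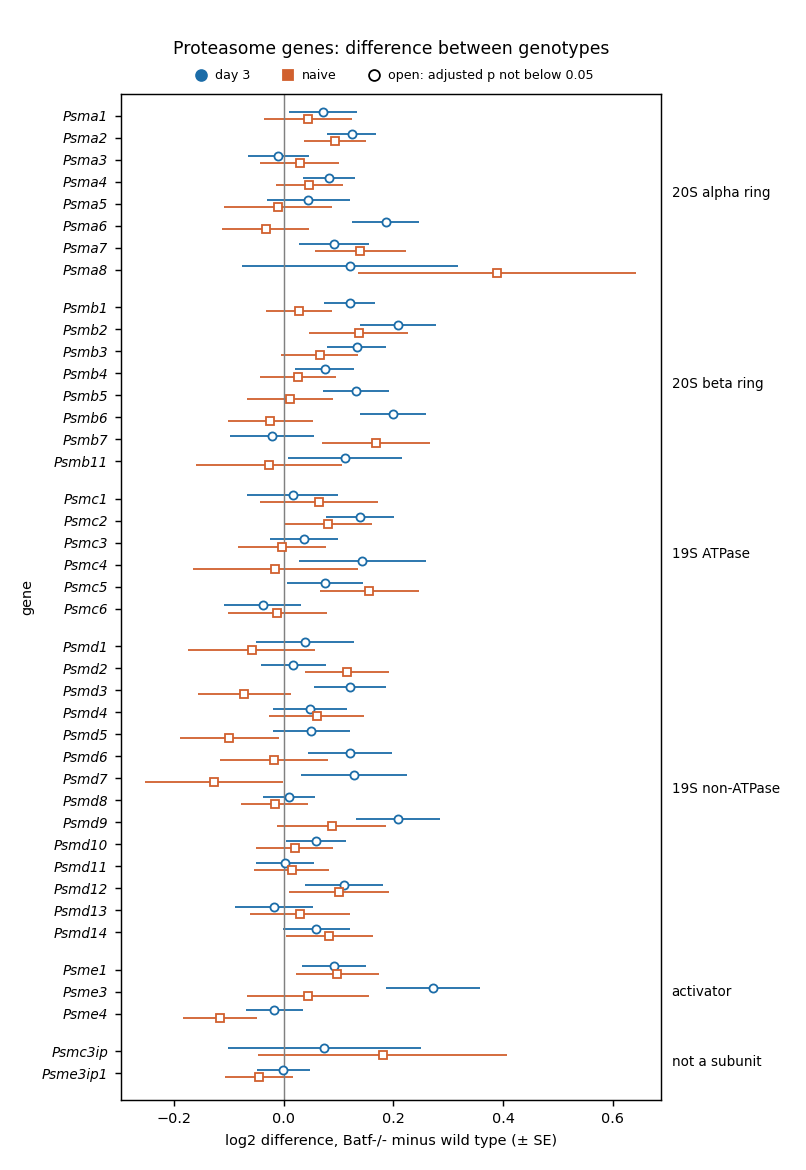
Difference between the genotypes (Batf-/- minus wild type, log2 ± SE, x axis) for each of the 41 genes at day 3 (circles) and in naive cells (squares), grouped by role. All symbols are open because no adjusted p was below 0.05; 35 of the 41 circles lie right of 0, the farthest being Psme3 at 0.27.

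The largest of these differences was in Psme3. Its day 3 values, 7.77, 7.75, 7.77 and 8.02 in wild-type and 8.12, 8.19, 8.10 and 7.99 in Batf-/- cells, overlapped through wild-type replicate 4, and the difference was 0.27 ± 0.09 (adjusted p = 0.173). Without that array it was 0.34 ± 0.08 and did not pass (adjusted p = 0.0950). Psmb2 read 11.31, 11.28, 11.30 and 11.28 in wild-type and 11.56, 11.49, 11.47 and 11.47 in Batf-/- cells, without overlap, a difference of 0.21 ± 0.07 (adjusted p = 0.199). Psmb6 differed by 0.20 ± 0.06 (adjusted p = 0.152), Psma6 by 0.19 ± 0.06 (adjusted p = 0.192), Psmd9 by 0.21 ± 0.08 (adjusted p = 0.255) and Psma2 by 0.12 ± 0.04 (adjusted p = 0.232). The groups of Psmb2, Psmb6, Psma6, Psmd9 and Psma2 did not overlap at day 3, and each had an unadjusted p below 0.05 before adjustment over 18194 genes. In a fit of the day 3 arrays alone Psmb2 passed, with array quality weights Psma6, Psmb2, Psmb6, Psmc2 and Psme3 did, and with an intensity trend or with log2(value + 16) Psma2 did. Array quality weights also raised the counts over all genes from 121 higher and 129 lower to 693 and 613. For the 39 genes above the dim level the 95% intervals of the difference lay between -0.31 and 0.46, so that differences of up to 1.37-fold are within them. The lower bound is again that of Psmc3ip.

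A like separation was seen in the mean of the 37 subunits, assembly chaperones (Psmd5, Psmd9 and Psmd10) and activators above the dim level, taken array by array. It was 10.56, 10.55, 10.59 and 10.57 in wild-type day 3 cells and 10.66, 10.65, 10.65 and 10.63 in Batf-/- day 3 cells, and the groups did not overlap. In wild-type naive cells it was 10.51 and 10.54. The Batf-/- naive arrays spread wider than that whole range, at 10.67, 10.46 and 10.53, with replicate 1, the array with the most neutrophil signal, highest. None of the marker genes of other cell types passed between the genotypes at day 3. Summed monocyte markers were higher in Batf-/- cells without overlap (197 to 219, against 162 to 191). So were plasma cell (62.4 to 68.1, against 46.7 to 60.2), erythroid (38.5 to 46.2, against 33.6 to 37.6) and CD4 T cell markers (86.7 to 93.4, against 80.1 to 85.2). Sums of B cell, NK cell, neutrophil, dendritic cell and platelet markers overlapped. The part of other cell types in the day 3 comparison was not tested. Some marker genes still read well above the dim level at day 3, among them H2-Ab1 between 9.07 and 9.39 and Cd79b between 7.40 and 7.86. Cd68 read between 6.27 and 6.51 in wild-type and between 6.52 and 7.02 in Batf-/- cells.

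**Figure D5:**
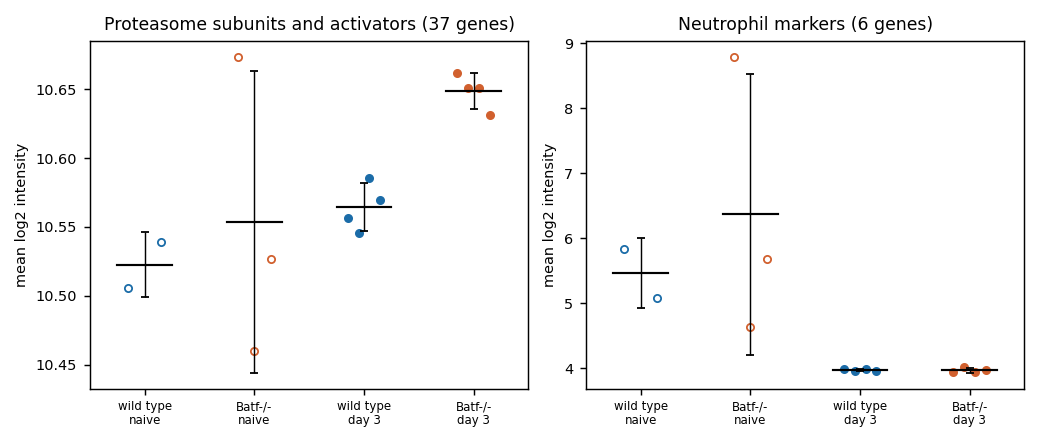
Left, mean log2 intensity of the 37 subunit, assembly chaperone and activator genes above the dim level on each array. Right, mean of 6 neutrophil markers on the same arrays. Points are arrays, lines group means and bars SD; the 4 Batf-/- day 3 arrays lie above the 4 wild-type ones on the left while all 8 lie near 4 on the right, and Batf-/- naive replicate 1 is the highest naive array in both panels.

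In naive cells no proteasome gene passed between the genotypes. By limma 0 of the 41 passed, where 1.08% of all genes did (0.813% higher and 0.264% lower), and 0 had an unadjusted p below 0.05, where 13.6% of all genes did. The naive groups did not overlap in 2 genes with higher values in Batf-/- cells (Psma2 and Psmb1) and 2 with lower values (Psme4 and Psme3ip1), where 11.8% and 12.7% of all genes did not. Batf-/- minus wild type was above 0 for 26 genes with a median of 0.03, and for 19 with a median of -0.02 without Batf-/- naive replicate 1. The genes with the smallest p were Psme4 (-0.12 ± 0.07), Psmc5 (0.16 ± 0.09), Psmb7 (0.17 ± 0.10), Psma7 (0.14 ± 0.08), Psma2 (0.09 ± 0.06) and Psma8 (0.39 ± 0.25), with adjusted p of at least 0.478. For Psma8 Batf-/- replicate 1 stood alone, at 4.61 beside 3.46 and 3.51. With 2 wild-type arrays the 95% intervals of the 39 genes above the dim level were wide, from -0.40 to 0.67, and a 1.59-fold difference lies within them. The upper bound is that of Psmc3ip, which is no subunit. Of the immunoproteasome genes, Psmb9 read higher in Batf-/- naive cells by 0.33 ± 0.08 and did not pass in the fit reported (adjusted p = 0.0925), and by 0.01 ± 0.06 at day 3. The naive difference of Psmb9 passed under 4 alternatives: without Batf-/- naive replicate 1 (0.39, adjusted p = 0.0371), with array quality weights (adjusted p = 0.0228), with an intensity trend (adjusted p = 0.0351) and with log2(value + 16) (adjusted p = 0.0484). Of the markers of other cell types, Cd22 (B cell), Tnfrsf17 (plasma cell) and Alas2 (erythroid) passed as higher in Batf-/- naive cells. The part of other cell types in the naive comparison was not tested.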

How the data were processed

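RNA of 13 samples was labelled with biotin and hybridised to 1-colour arrays. Per the submitters' processing notes probe sets were summarised with RMA, with no version given. The deposited values are linear intensity values (medians between 31.5 and 32.5) and were converted to log2. Of 45101 probe sets 34958 have 1 gene, 932 several and 9211 none. The brightest probe set stood for each of 18194 genes. The 4 group means were estimated from the 13 arrays in limma 3.58.1 under R 4.3.3 (lmFit and eBayes, 9 residual and 3.702 prior degrees of freedom), with two-sided tests and Benjamini-Hochberg adjustment over all genes, at 0.05. The code was tested on simulated data. Named genes were, per role, the 2 largest and the smallest change in wild-type cells, up to 6 with the smallest p per genotype comparison and the interaction, calls against the majority direction and members that are no constitutive subunit. Other members are also given, chosen after their values were seen. Members and lists were chosen with earlier results of these data known. Alternatives covered normalisation, offset, dim probe sets, probe set choice, spread estimate, weights, minimum change, a replicate block and leaving out each array. The number of arrays, 2 to 4 in a group, limits the precision.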

Additional observations from a re-analysis of the deposited data

Results flagged for a closer look

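In 3 of 84 groups of 4 arrays examined (41 genes and the subunit mean, 2 day 3 groups each), 1 array lay far from the other 3, where chance gives about 1 in 20. Psme3 read 8.02 on wild-type day 3 replicate 4 and 7.75, 7.77 and 7.77 on the others. Without that array Batf-/- minus wild type was 0.34 at day 3 (limma adjusted p = 0.0950). Psme3ip1 read 9.33 on wild-type day 3 replicate 2 and 9.23, 9.24 and 9.24 on the others, and without it the fall in wild-type cells was 0.44 (limma adjusted p = 9.32e-05). Psmc1 read 9.52 on wild-type day 3 replicate 3 and 9.44, 9.45 and 9.45 on the others, and without it the wild-type difference was 0.25 and did not pass (limma adjusted p = 0.0926).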

How the results depend on the processing

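Counts of members that passed were within 1.5 times the reported ones under all alternatives but those given here. Requiring a 1.2-fold change left 6 higher and 4 lower in wild-type and 6 higher and 1 lower in Batf-/- cells. Between genotypes at day 3, 1 gene passed as higher with log2(value + 16), 1 with an intensity trend, 1 with the compared groups alone and 5 with array quality weights. Leaving out each array gave 10 to 13 higher and 6 to 9 lower in wild-type cells, 14 to 19 and 6 to 10 in Batf-/- cells, and 0 to 0 for the genotype comparisons and the interaction. Deviations from the group means correlated from -0.316 to 0.102 over 16 pairs of same-numbered arrays (median -0.058), against -0.133 to 0.316 over 46 other pairs. In the group of 2 arrays the deviations mirror each other, so the correlations of 1 array are those of the other with the sign turned. The correlations therefore cannot decide whether the numbers pair the samples. With the replicate block 11 were higher and 8 lower in wild-type, 14 and 6 in Batf-/- cells, and 0 between genotypes. With the mean of all probe sets some directions turned, which shows that probe sets of these genes disagree: Psmd9 in Batf-/- cells (-0.26), Psmf1 (-0.62 in wild-type, -0.58 in Batf-/- cells), Rad23b (-0.065 and -0.012), Ufd1 (-0.16 and -0.18), Usp14 (0.21 and 0.13) and Uba3 in wild-type cells (0.25). Psmb4 (-0.05 and -0.04) and Psme4 (-0.12 and -0.09) turned as well and did not pass with either choice of probe sets. With 2 wild-type naive arrays small changes from naive cells are poorly bounded, and probe sets below the dim level show no change of RNA reliably.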
